A study of Mus musculus with 4 samples.

Results

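The 9 genes described here encode receptors with which lymphocytes find and enter tissues: the chemokine receptors *Ccr9*, *Cxcr6*, *Cxcr4*, *Ccr7*, *Ccr8*, *Ccr6* and *Cxcr5*, and *Itga4* and *Itgb7*, the subunits of the integrin α4β7 (LPAM-1). They were chosen by name from the 24641 genes in the count table of the 1st single-cell RNA sequencing (scRNA-seq) experiment and the 24838 in that of the 2nd, and all 9 have a row in both. The choice was made with 1 result in view, the level of *Ccr9* in *Il1rl1*+ G3SEKO cells beside the levels of other ILC2 genes there, so that comparison is given below as a description and is not tested. All cells were αLPs, the lineage-negative CD127+ FLT3- LPAM-1+ lymphoid progenitors of bone marrow (BM), sorted from C57BL/6 mice of both sexes between 6 and 12 weeks of age. WT mice carry the intact *Gata3* locus, and G3SEKO mice lack the tandem super-enhancers downstream of *Gata3* in every cell of the body. Cells of 10 WT and 8 G3SEKO mice entered the 1st experiment and cells of 7 WT and 9 G3SEKO mice the 2nd. Antibody hashtags told the pooled mice apart by genotype, with 3 hashtags per genotype in the 1st experiment and 1 in the 2nd. The labels of the 2nd experiment list both of its hashtags under WT, and the assignment of 1 of them to G3SEKO follows the rule by which the cells were chosen, so every G3SEKO value of the 2nd experiment rests on that assignment.

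Chemokine receptors are G protein-coupled receptors that steer cells along gradients of their ligands, and integrins hold cells to the vessel wall and the tissue matrix. CCR9 binds CCL25 of the small intestine and thymus, and α4β7 binds MAdCAM-1 on intestinal venules. CXCR6 binds CXCL16, CXCR4 binds the CXCL12 that retains cells in the BM, CCR7 and CXCR5 bind ligands of lymph nodes and follicles, CCR6 binds CCL20 and CCR8 binds CCL1 and CCL8. Innate lymphoid cells (ILCs) leave the BM as precursors or, for group 2 ILCs (ILC2s), as cells that already carry the IL-33 receptor chain ST2, the product of *Il1rl1*.

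Among 1033 and 7630 cells listed in the experiments, 724 and 6289 were kept. They were divided by reads of 4 genes, taken in this order: *Il1rl1*+ cells, *Eomes*+ cells (NK cell and ILC1 transcription factor), *Zbtb16*+ cells (PLZF, the factor of ILC precursors, ILCPs) and *Icos*+ cells, an early ILC2 marker. A cell was positive where ln(1 + reads per 10000) was at least 1, that is, at 172 CPM (reads per 1000000 reads of the cell or sum). The remaining cells had none of the 4. In WT, *Il1rl1*+ cells made up 62.3% of 681 cells in the 1st experiment and 69.2% of 5130 cells in the 2nd. In G3SEKO they were 2 of 43 cells (4.65%) and 50 of 1159 cells (4.31%). WT gates held 25 to 424 cells in the 1st experiment and 26 to 3548 in the 2nd, and G3SEKO gates held 2 to 17 and 43 to 357. Reads of a gate were summed within each experiment and genotype, and 14 sums of at least 5 cells of the 4 gates entered the fit. The 1st experiment gives no G3SEKO sum for *Il1rl1*+ or *Eomes*+ cells. Median depth per cell was 396198 reads in WT and 509911 in G3SEKO cells of the 1st experiment and 29677 and 42814 in the 2nd. The files hold reads and not counted molecules. Counting intervals of CPM treat each read as independent, which reads of the same molecule are not, so they are too narrow even for counting error. Intervals of shares cover the counting of cells only. Shares of cells with a read are given after each cell was thinned to the read minimum of the 2nd experiment, and shares of cells at the gate limit are not thinned.

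The name of each gate was set beside markers. The summed level of 6 ILC precursor markers was 4714 and 4776 CPM in WT *Zbtb16*+ cells and 320 and 205 CPM in WT *Il1rl1*+ cells. It lay between them in WT *Icos*+ cells (1424 and 647 CPM) and *Eomes*+ cells (2104 and 3787 CPM). *Zbtb16* is itself 1 of the 6 and made up 991 and 1024 CPM in WT *Zbtb16*+ cells, and *Icos*+ cells were gated below its limit. The gating therefore fixed part of these differences. 6 NK/ILC1 markers, *Eomes* among them, summed to 2550 and 1067 CPM in WT *Eomes*+ cells and to 21.1 and 19.9 CPM in WT *Il1rl1*+ cells. A list of 6 ILC2 markers did not set *Il1rl1*+ cells apart from *Icos*+ or *Zbtb16*+ cells. It summed to 2929 and 2760 CPM in WT *Il1rl1*+ cells, to 3158 and 2831 CPM in *Icos*+ cells and to 3079 and 3529 CPM in *Zbtb16*+ cells, where *Rora* alone read 2082 and 2334 CPM, and was lower in *Eomes*+ cells (958 and 2229 CPM). In *Il1rl1*+ G3SEKO cells of the 2nd experiment the precursor markers summed to 2565 CPM and the ILC2 markers to 2518 CPM, of which *Rora* made up 1414 CPM, against 529 CPM of *Rora* in WT. *Gata3*, which the deleted super-enhancers serve and which encodes the master regulator of ILC2s, read 1387 and 1039 CPM in WT *Il1rl1*+ cells and 294 CPM in G3SEKO. *Il1rl1* itself read 572 CPM in the 50 G3SEKO cells and 1363 CPM in WT, and 18 of the 50 and 2636 of the 3548 WT cells passed with gates at 2, so every ratio in this gate compares cells with unequal levels of the gate gene. The 50 cells carried precursor genes at a level the WT cells of the same gate did not, and they are named by the gate here and not as ILC2s.

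*Ccr9*, the receptor of small-intestinal homing, was high in *Il1rl1*+ cells and low in *Zbtb16*+ cells. In WT it stood at 1019 CPM (1st experiment) and 742 CPM (2nd) in *Il1rl1*+ cells, at 605 and 531 CPM in cells of no gate and at 506 and 460 CPM in *Icos*+ cells. It read 25.3 and 90.9 CPM in *Zbtb16*+ cells and 19.1 and 27.5 CPM in *Eomes*+ cells. The last pair of gates overlapped. In each experiment the cells of no gate read above the *Icos*+ cells, but the lower value of the former (531 CPM) lay close to the higher value of the latter (506 CPM). The 3 WT hashtags of the 1st experiment gave 1114, 834 and 1103 CPM in *Il1rl1*+ cells (1017 ± 158, SD, n = 3 hashtags). These hashtags shared 1 library, and the paper's methods do not say which mice each of them held. After thinning, *Ccr9* reads were found in 66.3% and 56.9% of WT *Il1rl1*+ cells against 10.2% and 12.4% of WT *Zbtb16*+ cells.

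**Figure D1:**
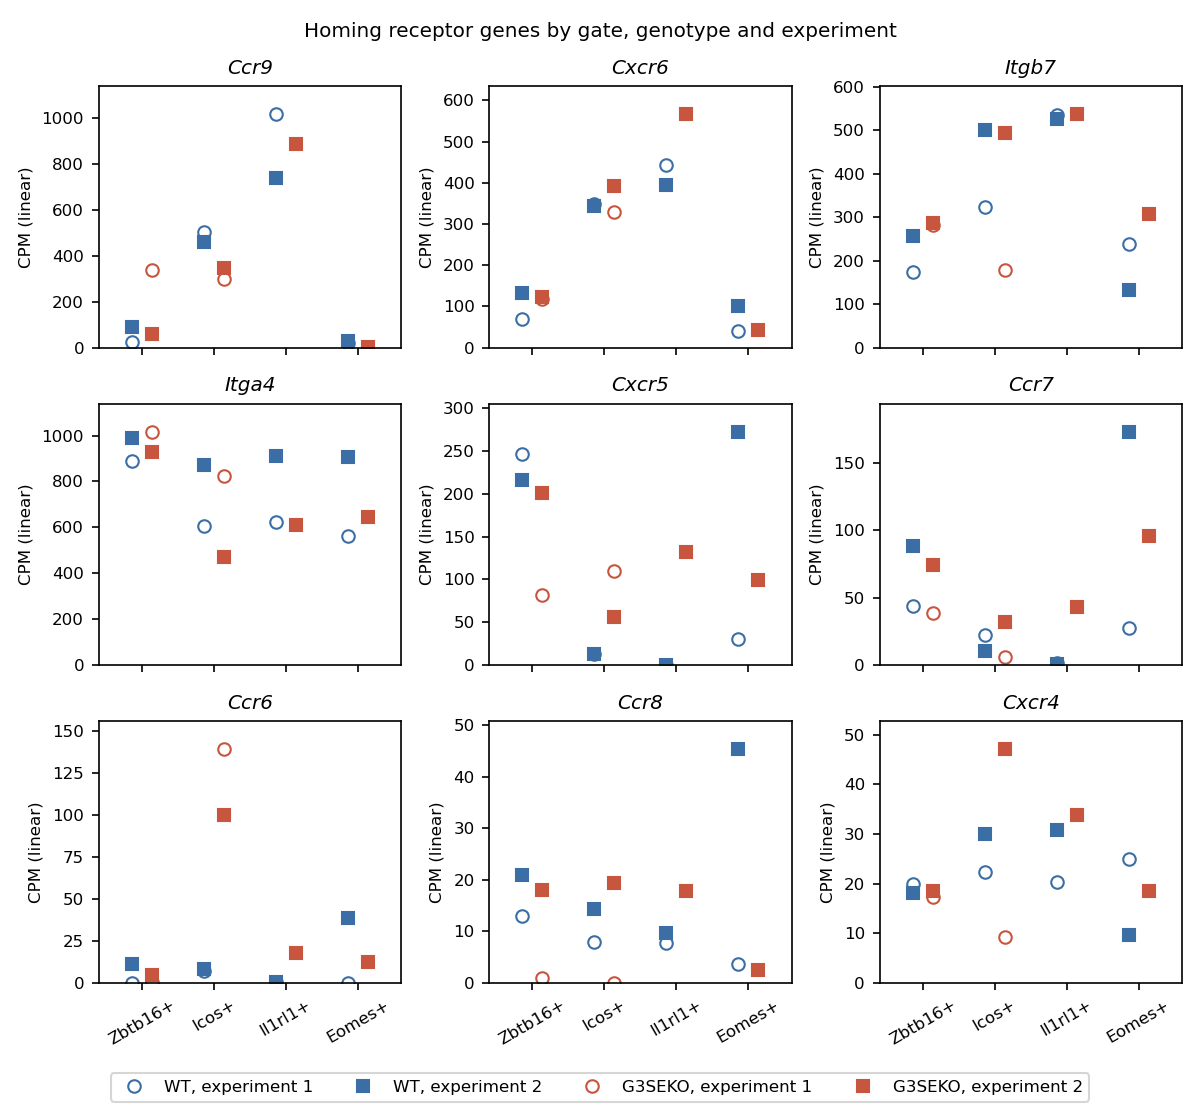
Level of the 9 genes in each gate (y axis, CPM of the summed reads on a linear scale of its own for each gene; x axis, gate), with open circles for the 1st and filled squares for the 2nd experiment, WT in blue and G3SEKO in red. In WT, *Ccr9* lies between 19.1 and 90.9 CPM in *Zbtb16*+ and *Eomes*+ cells and between 460 and 1019 CPM in *Icos*+ and *Il1rl1*+ cells, and *Cxcr5* runs the other way, from 216 and 246 CPM in *Zbtb16*+ cells to 0.440 and 0.600 CPM in *Il1rl1*+ cells.

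*Ccr9* lies on chromosome 9 (GRCm38, 123678439 to 123784330, plus strand) and *Cxcr6* follows it on the same strand (123806475 to 123811760), and the RefSeq start sites of the pair are 39.3 kb apart. Their promoters, the 250 bases before each start site, are shown because these neighbouring genes had nearly the same pattern over the gates and because GATA3 binds GATA motifs. Capitals mark a GATA motif, searched on both strands as AGATAA, its variant TGATAA, and both of these with a final G, AGATAG besides TGATAG. The sequences are from the RefSeq table of GRCm38.p6 and are written along the plus strand. The *Ccr9* window lies inside the GENCODE gene whose positions are given above, since its RefSeq start site is downstream of the GENCODE start. The bases before the GENCODE start of *Ccr9* were not searched.
Ccr9, chr9:123766961-123767210, plus strand: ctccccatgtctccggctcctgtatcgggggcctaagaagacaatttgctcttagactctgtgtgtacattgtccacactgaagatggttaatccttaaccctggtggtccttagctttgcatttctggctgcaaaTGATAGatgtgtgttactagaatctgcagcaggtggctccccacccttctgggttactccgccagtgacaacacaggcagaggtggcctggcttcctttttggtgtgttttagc
Cxcr6, chr9:123806227-123806476, plus strand: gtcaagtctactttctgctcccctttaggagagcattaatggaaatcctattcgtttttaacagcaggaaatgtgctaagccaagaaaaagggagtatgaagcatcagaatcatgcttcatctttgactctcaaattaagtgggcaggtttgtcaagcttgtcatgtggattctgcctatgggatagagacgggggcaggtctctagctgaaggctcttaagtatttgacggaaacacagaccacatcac
The *Ccr9* window holds 1 TGATAG and the *Cxcr6* window none of the 4 motifs. Of 32851 promoters of this length in the table, 6.35% hold TGATAG and 26.5% hold any of the 4, so a match is common, and no binding was measured in these cells.

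In *Il1rl1*+ cells of the 2nd experiment, *Ccr9* read 742 CPM in WT and 889 CPM in G3SEKO (95% counting interval 853 to 927), a log2 ratio of G3SEKO to WT of 0.26. This is the contrast on which the genes were chosen, with 1 sum per genotype, and it has no test. The 50 G3SEKO cells were uneven. 23 of them (46.0%, 95% interval 31.8 to 60.7) passed the gate limit for *Ccr9* against 52.3% of 3548 WT cells, and after thinning *Ccr9* reads were found in 46.0% and 56.9%. The median cell stood at 53.1 CPM against 218 CPM in WT, and 1 cell gave 14.2% of the G3SEKO reads of *Ccr9*. The ratio moved with the choice of cells, from -0.26 with gates at 0.5 (82 G3SEKO cells) to 0.71 with gates at 2 (18 cells). It was -0.087 when 38 cells that the deposited assignment calls doublets were assigned by their hashtag reads. In the 1st experiment the G3SEKO *Il1rl1*+ cells were 2: one had 1143 CPM of *Ccr9* and 631 CPM of *Gata3*, the other 15.2 CPM of each, with 347 CPM of *Eomes* and 578 CPM of *Ccr7*.

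Other ILC2 genes in the same 50 cells gave the following values. *Gata3* read 1039 CPM in WT and 294 CPM in G3SEKO (log2 ratio -1.82), and *Il2ra*, the IL-2 receptor chain CD25, read 582 and 151 CPM (-1.95). *Rnf128*, a ubiquitin ligase gene, read 537 and 1.17 CPM, *Il9r* 122 and 1.95 CPM, and *Klrg1*, a lectin-like receptor of mature ILC2s, 31.4 and 0.780 CPM. *Slc7a8*, an amino acid transporter gene, read 155 and 0.780 CPM and *Hs3st1*, a sulfotransferase gene, 90.5 and 2.73 CPM, and the low-level genes *Areg*, *Il5*, *Il13* and *Ptgdr2* read 0.715 to 14.2 CPM in WT and 0.390 CPM or less in G3SEKO. *Icos* (718 and 746 CPM) and *Il17rb* (565 and 658 CPM) lay close together, and *Rora*, a transcription factor needed for ILC2 development, read 529 CPM in WT and 1414 CPM in G3SEKO. Of 8520 genes at 20 CPM or more in either genotype, 14.9% were at least 2-fold higher and 13.9% at least 2-fold lower in G3SEKO. Of the 10 ILC2 genes counted here that passed this limit, 7 were at least 2-fold lower and 1 higher. Of the 9 receptor genes, 7 passed it, 2 were at least 2-fold higher and 0 lower, with a median log2 ratio of 0.26, against 0.08 over all genes. These counts belong to the contrast that chose the genes, and nothing is read from them.

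**Figure D2:**
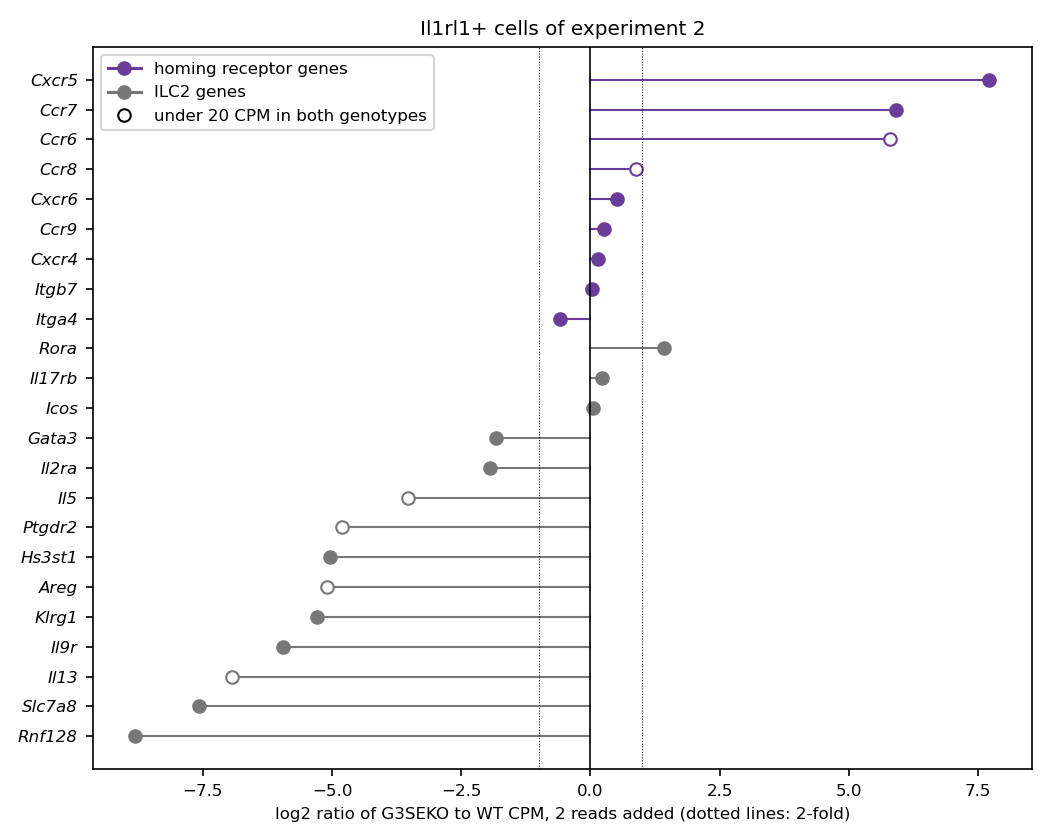
Log2 ratio of G3SEKO to WT in *Il1rl1*+ cells of the 2nd experiment (x axis, 2 reads added to each sum, dotted lines at 2-fold) for the 9 receptor genes and the ILC2 genes (y axis), 1 point per gene from 50 G3SEKO and 3548 WT cells, without a test, open where the gene is under 20 CPM in both. *Ccr9* (0.26), *Cxcr4* (0.14) and *Itgb7* (0.03) lie near 0, whereas *Gata3* is at -1.82 and *Cxcr5* at 7.72.

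The other receptors in these cells divided by their level in WT. *Cxcr6* read 395 CPM in WT and 567 CPM in G3SEKO, *Itgb7* 527 and 537 CPM, *Itga4* 913 and 609 CPM, and *Cxcr4* 30.7 and 33.9 CPM. 3 receptor genes close to 0 in WT *Il1rl1*+ cells were present in the G3SEKO cells. *Cxcr5* read 0.600 CPM in WT and 132 CPM in G3SEKO, *Ccr7* 0.681 and 42.9 CPM, and *Ccr6* 0.297 and 17.9 CPM. After thinning, *Cxcr5* was found in 0.366% of WT cells and in 7 of 50 G3SEKO cells (14.0%, 95% interval 5.82 to 26.7), and *Ccr7* in 0.0846% and in 2 of 50 cells. Single cells carried much of this: the highest cell for each gene gave 37.5% of the *Cxcr5* reads, 50.9% of the *Ccr7* reads and 97.8% of the *Ccr6* reads of the G3SEKO sum, and the cell at the limit for *Ccr6* was not *Cxcr5*+. *Ccr8* read 9.67 and 17.9 CPM, with 56.5% of the G3SEKO reads from 1 cell. Among the 50 cells, those with *Il18r1* at the gate limit, a receptor gene of ILCPs, had 873 CPM of *Ccr9* and 143 CPM of *Cxcr5* (37 cells), and those without it 979 and 72.0 CPM (13 cells).

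Markers of other cells also differed in this gate, and their part in these values was not tested. In WT and G3SEKO *Il1rl1*+ cells of the 2nd experiment, NK/ILC1 markers summed to 19.9 and 139 CPM with 6 of 6 detected in both, and markers of lymphoid tissue inducer cells and ILC3s (LTi/ILC3 markers) to 12.9 and 44.4 CPM with 3 of 4 detected in both and *Il22* at 0. *Ccr6* is 1 of these 4 and made up 0.297 and 17.9 CPM of the sums. T lineage markers summed to 18.9 and 162 CPM with *Cd3g* at 0 in G3SEKO (4 of 5 detected), and B lineage markers to 35.7 and 103 CPM with *Cd79a* at 0 in both (3 of 4 detected in WT and 2 of 4 in G3SEKO). Dendritic cell markers summed to 90.8 and 154 CPM, with *Itgax* at 0 in both and *Siglech* and *Flt3* at 0 in G3SEKO. Myeloid markers (5 of 5 and 1 of 5 detected) were at 2.08 and 0.390 CPM, and erythroid markers (4 of 4 and 0 of 4) at 24.5 and 0 CPM.

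Which receptors separate the WT gates was then tested in the fit over all 20983 genes with enough reads, with the experiment as block. Between *Il1rl1*+ and *Zbtb16*+ cells, 26 genes (0.124%) passed an adjusted p of 0.05, 5 of them higher and 21 lower in *Il1rl1*+ cells. Of the 8 receptor genes other than *Ccr9*, 1 was among them. *Cxcr5* read 246 and 216 CPM in WT *Zbtb16*+ cells and 0.440 and 0.600 CPM in WT *Il1rl1*+ cells, ranges that do not overlap. Its fitted log2 change was -8.78 (SE 1.09, edgeR adjusted p = 0.030). The call held under 8 of 13 alternatives (log2 changes of -8.95 to -7.49), with adjusted p as high as 0.36 in the other 5, among them the fit on the WT sums alone (0.056). With the 2nd experiment left out and the 3 hashtag pools of the 1st as samples, the change was -9.08 (SE 2.82) and edgeR's adjusted p 0.40. *Ccr9* was chosen for its level in the *Il1rl1*+ gate, so its fitted log2 change of 3.95 (SE 0.85), which ran from 1.83 to 4.56 over the alternatives, is given as a description and no call on it is counted in contrasts with that gate.

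Several receptors differed between these gates in both experiments without passing the test. *Cxcr6* read 69.3 and 133 CPM in WT *Zbtb16*+ cells and 442 and 395 CPM in *Il1rl1*+ cells, without overlap, and its log2 change was 2.17 (SE 0.35, adjusted p = 0.091). *Ccr7* read 44.2 and 88.1 CPM against 1.90 and 0.681 CPM (log2 change -5.35, SE 1.16, adjusted p = 0.24). *Itgb7* read 175 and 257 CPM against 536 and 527 CPM (1.39, SE 0.47, adjusted p = 0.56). Of the 8 genes other than *Ccr9*, DESeq2 called *Cxcr5*, *Cxcr6* and *Ccr7*, and in all it called 584 genes (2.78%) of this comparison. *Itga4* was at 890 and 991 CPM and at 625 and 913 CPM, overlapping ranges with a log2 change of -0.23.

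**Figure D3:**
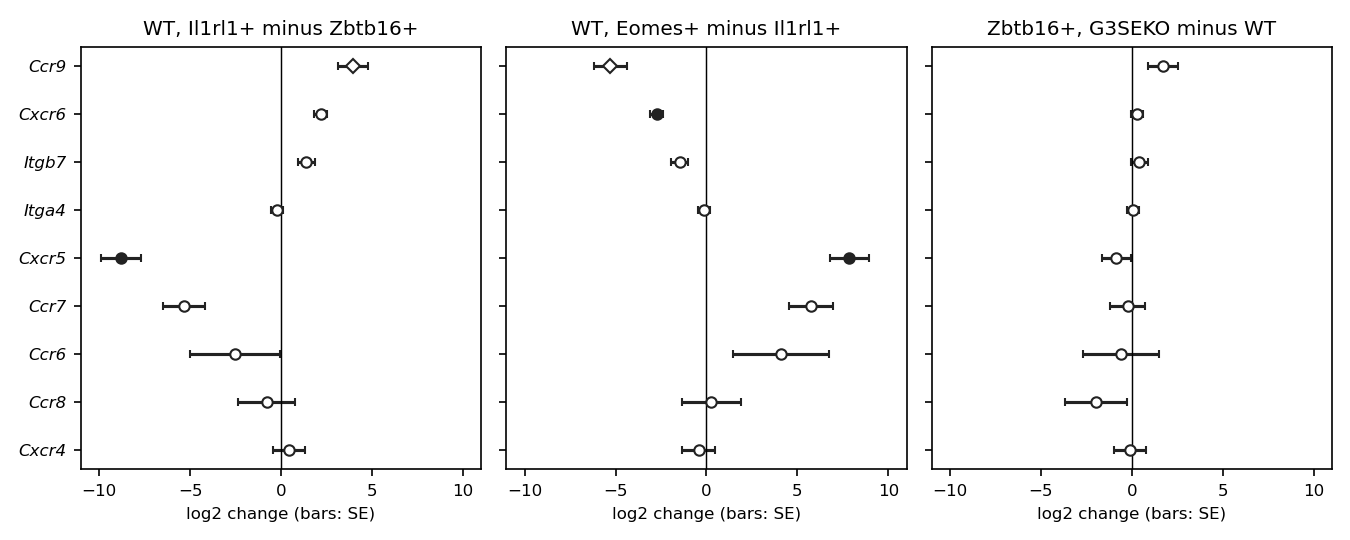
Fitted log2 change of the 9 receptor genes with its SE (x axis, bars are SE) in 2 WT gate comparisons and in the genotype comparison of *Zbtb16*+ cells (panels), from edgeR's fit over 14 sums. Filled points passed an adjusted p of 0.05, which holds for *Cxcr5* (-8.78 between *Il1rl1*+ and *Zbtb16*+ cells) and for *Cxcr5* and *Cxcr6* (7.86 and -2.74 between *Eomes*+ and *Il1rl1*+ cells), and diamonds mark *Ccr9* where no test applies.

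WT *Eomes*+ cells differed from *Il1rl1*+ cells in *Cxcr6* and *Cxcr5*. 32 genes passed in this comparison (0.153%), 20 higher and 12 lower in *Eomes*+ cells, and 2 of the 8 receptor genes other than *Ccr9* were among them. *Cxcr6* was at 39.5 and 102 CPM in *Eomes*+ cells and at 442 and 395 CPM in *Il1rl1*+ cells, a fall of 2.74 on the log2 scale (log2 change -2.74, SE 0.36, edgeR adjusted p = 0.037). *Cxcr5* was at 30.3 and 272 CPM against 0.440 and 0.600 CPM (7.86, SE 1.05, edgeR adjusted p = 0.038). Neither pair of ranges overlapped. Of the 8 genes other than *Ccr9*, DESeq2 called both of these and *Ccr7* (27.5 and 173 CPM against 1.90 and 0.681 CPM, fitted log2 change 5.74, edgeR adjusted p = 0.16) among 1343 genes in all (6.4%). The *Eomes*+ sums held 25 and 26 cells, and 1 cell gave 56.6% and 57.2% of their *Cxcr5* reads. The *Cxcr6* call held under 9 and the *Cxcr5* call under 8 of 13 alternatives, and the fit on the WT sums alone gave an adjusted p of 0.063 for *Cxcr6* and 0.053 for *Cxcr5*. With gates at 2 the *Cxcr5* change fell to 3.20 (adjusted p = 0.50), and that of *Cxcr6* was -3.12 (adjusted p = 0.29). The hashtag pools of the 1st experiment alone gave 6.41 for *Cxcr5* and -3.23 for *Cxcr6*, with edgeR adjusted p of 0.34 and 0.090. The median change of all genes here was -0.31. Other genes moved with this contrast, and their part was not tested. 10 of the 25 and 13 of the 26 *Eomes*+ cells also passed the limit for *Zbtb16*, and 8 and 2 passed it for *Cd3e*. Precursor markers summed to 2104 and 3787 CPM in *Eomes*+ cells against 320 and 205 CPM in *Il1rl1*+ cells, and T lineage markers to 554 and 104 CPM against 20.8 and 18.9 CPM.

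The *Icos*+ cells read higher than *Zbtb16*+ cells for *Ccr9* and *Cxcr6*, but no receptor gene passed between *Icos*+ and *Zbtb16*+ cells, where edgeR called 1 gene in all (0.00477%) and 1072 genes (5.11%) were at an unadjusted p below 0.05. *Ccr9* read 506 and 460 CPM against 25.3 and 90.9 CPM, which do not overlap (log2 change 3.09, SE 0.81, adjusted p = 0.83). *Cxcr6* read 348 and 344 CPM against 69.3 and 133 CPM (1.89, SE 0.35, adjusted p = 0.60), and *Cxcr5* read 13.0 CPM in both experiments against 246 and 216 CPM (-4.12, adjusted p = 0.72). These 3 genes were below an unadjusted p of 0.05, and DESeq2 called all 3 among 201 genes in all (0.958%). By edgeR no receptor gene passed between *Il1rl1*+ and *Icos*+ cells (1 gene in all, 0.00477%), *Eomes*+ and *Zbtb16*+ cells (3, 0.0143%) or *Eomes*+ and *Icos*+ cells (2, 0.00953%). *Ccr9* is not counted in the 1st of these comparisons. At an unadjusted p below 0.05 stood 2 of the other receptor genes there, and 0 and 3 of the 9 in the last comparisons, against 2.69%, 8.48% and 9.45% of all genes. Counted in the same way, DESeq2 called 1, 0 and 3 receptor genes, against 0.396%, 3.07% and 4.58% of all genes.

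Whether the receptors differ with the deletion in cells below the limit for *Il1rl1* was tested in *Zbtb16*+ and *Icos*+ cells. Such cells still held *Il1rl1* reads, at 10.99 and 16.8 CPM in WT and 8.23 and 7.81 CPM in G3SEKO *Zbtb16*+ cells and at 22.2 and 41.3 CPM and 4.50 and 9.58 CPM in *Icos*+ cells. EdgeR called 0 genes (0%) in *Zbtb16*+ cells, with 488 (2.33%) at an unadjusted p below 0.05 and 19 (0.0905%) called by DESeq2, and 0 (0%) in *Icos*+ cells, with 888 (4.23%) and 122 (0.581%). None of the 9 receptor genes passed in either gate by edgeR or DESeq2, or under any other alternative, over 234 values with a lowest adjusted p of 0.052. At an unadjusted p below 0.05 stood 0 of them in *Zbtb16*+ cells and 1, *Cxcr5*, in *Icos*+ cells. *Gata3* itself read 862 and 778 CPM in WT and 937 and 499 CPM in G3SEKO *Zbtb16*+ cells, which overlap, and 1185 and 997 CPM against 507 and 443 CPM in *Icos*+ cells, which do not.

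In *Zbtb16*+ cells the experiments gave *Ccr9* opposite signs. It read 25.3 CPM in WT and 340 CPM in G3SEKO in the 1st experiment and 90.9 and 60.7 CPM in the 2nd, and the fitted log2 change was 1.72 (SE 0.81, edgeR adjusted p = 1), which turned to -0.92 with gates at 2. The high G3SEKO value comes from few cells: 17 cells entered, 2 passed the gate limit for *Ccr9* and 1 gave 49.0% of the reads. *Cxcr6* read 69.3 and 133 CPM in WT and 117 and 124 CPM in G3SEKO. Its fitted log2 change was 0.29 (SE 0.34, adjusted p = 1), which turned to -0.55 with overlapping gates. *Itgb7* read 175 and 257 CPM and 281 and 287 CPM, and *Ccr7* 44.2 and 88.1 CPM and 38.5 and 74.1 CPM. *Cxcr5* was read in this gate in both genotypes, at 246 and 216 CPM in WT and 81.4 and 201 CPM in G3SEKO, and was found in 29.0% and 29.7% of thinned cells of the 2nd experiment.

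In *Icos*+ cells, *Ccr9* read 506 and 460 CPM in WT and 299.8 and 348 CPM in G3SEKO, which do not overlap, and the fitted log2 change was -0.60 (adjusted p = 0.91) where the median of all genes was -0.25. It was found in 43.9% of thinned WT cells (95% interval 39.8 to 48.1) and 28.6% of G3SEKO cells (23.9 to 33.7) of the 2nd experiment. In the 1st experiment 1 of the 7 G3SEKO cells gave 79.8% of the *Ccr9* reads. The mean of each cell's CPM there went the other way, at 680 in WT and 834 in G3SEKO. *Ccr6* read 7.24 and 7.95 CPM in WT against 139 and 99.6 CPM in G3SEKO, without overlap (4.19, SE 2.25, adjusted p = 0.90), and *Cxcr5* read 13.0 and 13.0 CPM against 109 and 56.4 CPM (2.76, SE 0.83, adjusted p = 0.90). In the 1st experiment the 7 G3SEKO cells owed 99.3% of the *Ccr6* reads and 99.8% of the *Cxcr5* reads to 1 cell. With gates at 2 the change of *Cxcr5* turned to -0.52 and that of *Ccr9* to 0.10. In the 2nd, 7.96% of 339 G3SEKO cells passed the gate limit for *Ccr6* against 0.879% of 569 WT cells, and after thinning the shares with a read were 7.67% and 1.41%. *Cxcr6* read 348 and 344 CPM in WT and 329 and 392 CPM in G3SEKO.

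Markers of LTi/ILC3 cells and of ILC precursors moved with these values, and their part was not tested. 4 LTi/ILC3 markers summed to 32.9 and 23.2 CPM in WT *Icos*+ cells and to 315 and 156 CPM in G3SEKO ones, with *Il22* at 0 throughout. *Ccr6* is itself 1 of these 4 markers. The 6 precursor markers summed to 1424 and 647 CPM in WT and to 2188 and 2178 CPM in G3SEKO *Icos*+ cells, and *Il18r1*, 1 of the 6, read 610 and 283 CPM against 1336 and 908 CPM. T lineage markers summed to 37.1 and 44.7 CPM against 94.5 and 72.5 CPM. NK/ILC1 markers went opposite ways, from 287 CPM in WT to 42.4 CPM in G3SEKO in the 1st experiment and from 24.5 to 247 CPM in the 2nd. The cells of no gate had the highest *Ccr6* of the 2nd experiment, with 87.3 CPM in WT and 318 CPM in G3SEKO, where 4.16% and 21.1% of cells passed the gate limit and 4.94% and 21.6% had a read after thinning.

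**Figure D4:**
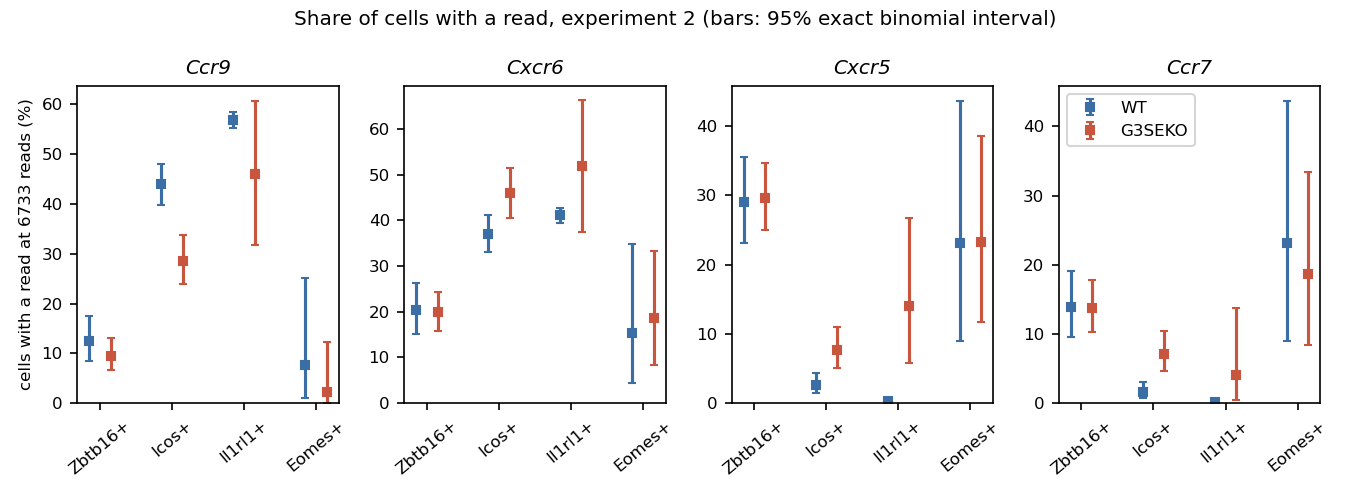
Share of cells with at least 1 read of *Ccr9*, *Cxcr6*, *Cxcr5* and *Ccr7* after thinning each cell to the same number of reads (y axis, percent, with 95% exact binomial intervals) by gate (x axis) in the 2nd experiment, WT beside G3SEKO. *Ccr9* is in 56.9% of WT and 46.0% of G3SEKO *Il1rl1*+ cells, and *Cxcr5* is in 29.0% and 29.7% of *Zbtb16*+ cells and in 0.366% and 14.0% of *Il1rl1*+ cells.

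The LPAM-1 subunits were read in every gate, and *Cxcr4* and *Ccr8* were low in all of them. *Itga4*, the α4 chain, lay between 470 and 1017 CPM in all 14 sums, and *Itgb7*, the β7 chain, between 133 and 537 CPM. Both chains were part of the sort, since every cell was gated on LPAM-1 protein, so cells without the protein could not enter. In WT *Itgb7* read 536 and 527 CPM in *Il1rl1*+ cells, and cells of no gate overlapped them at 533 and 517 CPM. The *Il1rl1*+ range lay above that of *Icos*+ cells (322 and 500 CPM), and *Itgb7* was lowest in *Zbtb16*+ (175 and 257 CPM) and *Eomes*+ cells (237 and 133 CPM), whose ranges overlap. *Cxcr4* lay between 9.17 and 47.1 CPM in all sums, and its ranges overlapped between the genotypes in both *Zbtb16*+ cells (19.9 and 18.1 CPM in WT, 17.4 and 18.6 CPM in G3SEKO) and *Icos*+ cells (22.3 and 30.03 CPM, 9.17 and 47.1 CPM). *Ccr8* was at 45.4 CPM or less in every sum and at 0 in the 7 G3SEKO *Icos*+ cells of the 1st experiment.

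Within single cells, *Ccr9* and *Cxcr5* were seldom at the gate limit together. In WT cells of the 2nd experiment, 3 of 2394 *Ccr9*+ cells were *Cxcr5*+ (0.125%), against 1.87% of all 5130 cells, and in the 1st it was 1 of 335 (0.299%) against 5.58% of 681. In G3SEKO cells of the 2nd experiment it was 6 of 206 (2.91%) against 16.0% of 1159. The gap was smaller within the gate that held all 3 WT cells: 3 of 26 *Ccr9*+ cells among WT *Zbtb16*+ cells (11.5%), against 25.3% of all 217. In WT *Icos*+ cells it was 0 of 220, which allows up to 1.36%, against 2.11% of 569. *Ccr7* was in 0.125% and *Ccr6* in 0 of the 2394 WT cells, which allows a share of up to 0.125%, against 0.994% and 0.760% of all. *Cxcr6* showed no such gap, with 34.0% of the WT *Ccr9*+ cells and 34.5% of all, and in G3SEKO 48.1% and 29.0%. In the 50 G3SEKO *Il1rl1*+ cells, 18 of 23 *Ccr9*+ cells were *Cxcr6*+ (78.3%, against 44.0% of all 50) and none of the 6 *Cxcr5*+ cells was *Ccr9*+. Cells of 1 pool are not replicates, the gates differ in both genes, the cells were not thinned and G3SEKO cells were deeper, and these shares carry no test.

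**Figure D5:**
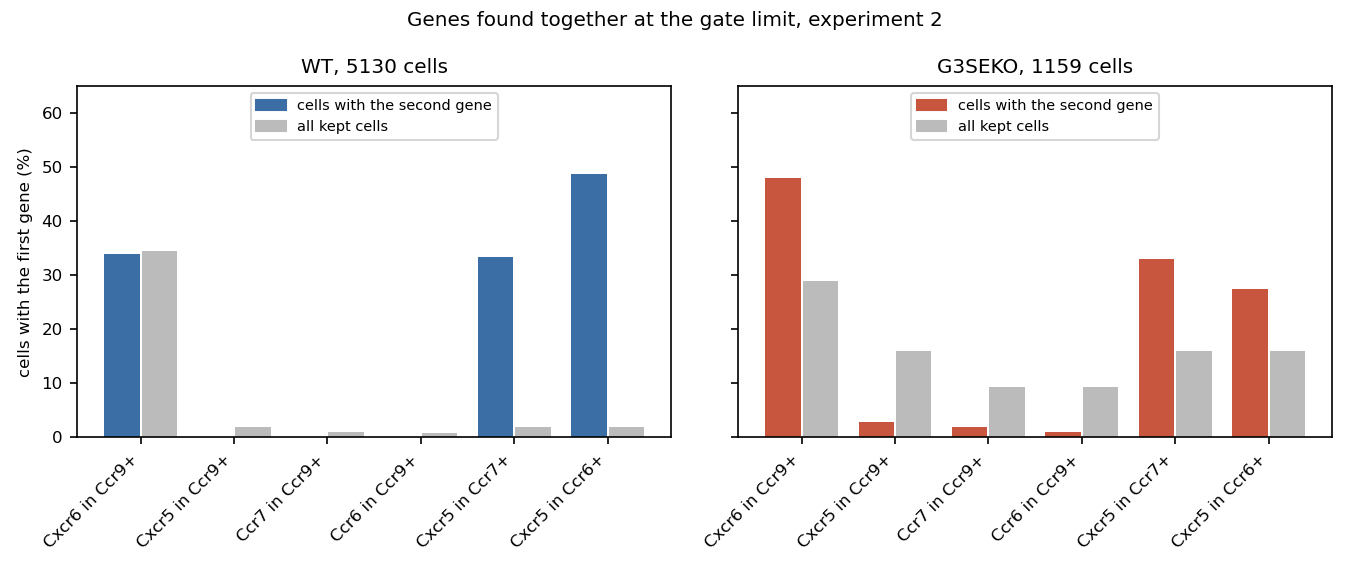
Share of cells at the gate limit for the first-named gene of each pair (y axis, percent) among cells at the limit for the second-named gene (coloured bars) and among all kept cells (grey bars) in the 2nd experiment, WT on the left and G3SEKO on the right. *Cxcr5* is in 0.125% of WT *Ccr9*+ cells and 1.87% of all WT cells, and in 2.91% and 16.0% in G3SEKO.

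*Cxcr5* was also counted in cells with *Ccr7* or *Ccr6*, again without a test. Of WT *Ccr7*+ cells of the 2nd experiment, 17 of 51 (33.3%) were *Cxcr5*+, against 1.87% of all cells, and of the G3SEKO ones 36 of 109 (33.0%), against 16.0% of all. 12 of the 17 WT cells were *Zbtb16*+, a gate in which 12 of 27 *Ccr7*+ cells (44.4%) were *Cxcr5*+, against 25.3% of all 217. In WT *Icos*+ cells it was 4 of 5, against 2.11% of 569. *Ccr6*+ cells of the 2nd experiment were *Cxcr5*+ in 19 of 39 (48.7%) WT and 30 of 109 (27.5%) G3SEKO cases. In WT cells of the 1st experiment it was 5 of 20 *Ccr7*+ and 0 of 2 *Ccr6*+ cells, against 5.58% of all.

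Over the 14 sums, the genes whose log2(CPM + 1) followed *Ccr9* most closely among 10904 genes were *B3galt2* (Pearson r = 0.93), *Cxcr6* (0.93), *Axin2*, a target gene of Wnt signalling (0.93), *Plxnd1*, a semaphorin receptor gene (0.92), and *Sesn1* (0.92). *Ccr9* ran with *Itgb7* at 0.66 and against *Ccr7* at -0.66 and *Cxcr5* at -0.57. For *Itgb7* the closest were *Tlr1* (0.95), *Samhd1* (0.92), *Dtnbp1* (0.90), *Zfp609* (0.89) and *Epas1* (0.88). The sums share libraries and the gates were cut from the same cells, so the coefficients describe these sums and have no test.

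No other homing gene passed by edgeR, whereas DESeq2 made calls among them. Of the other chemokine receptors 13 of 19 had enough reads, of the other integrin subunits 20 of 24, of selectins and their ligands 9 of 12, of the ligands of the 9 receptors 4 of 12, and of chemokine signalling and integrin activation genes 30 of 30. EdgeR called 0 of these genes in the 8 comparisons, where 90 of 608 values (14.8%) were at an unadjusted p below 0.05 and DESeq2 called 31 (5.1%), *Ccr2* among them in 3 comparisons. Over all genes these shares were 6.31% and 2.36%. Between WT *Il1rl1*+ and *Zbtb16*+ cells the median log2 change was 0.40 for the other chemokine receptors and 0.26 for the other integrin subunits, beside -0.23 for the 9 receptor genes and 0.07 for all genes. *Ccr2*, the receptor for CCL2, was read in every gate, at 325 and 500 CPM in WT *Zbtb16*+ cells, 676 and 665 CPM in *Il1rl1*+ cells and 1162 and 1437 CPM in *Eomes*+ cells.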

How the data were processed

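αLPs of WT and G3SEKO mice were profiled in 2 scRNA-seq experiments. The authors trimmed the reads, mapped them to mouse transcripts of Ensembl GRCm38 release 101 with Bowtie2 and deposited read counts per gene and cell, with hashtag calls as prefixes of the cell names. The submitters' notes also name Seurat 4 and mm10. The 9 genes and all lists were chosen with earlier results of these data known. Kept cells had 1 hashtag call, at least 83012 (1st) or 6733 (2nd) reads, at most 10% mitochondrial reads and *Id2* at ln(1 + reads per 10000) of at least 1. Doublets called by hashtag (1 and 100 cells) were left out, and doublets within a hashtag were not sought. 11 cell labels occur in both experiments. Of the kept cells, 49.6% and 38.1% in WT and 32.6% and 18.4% in G3SEKO passed more than 1 gate before the gates were ordered.

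Sums of a gate (1674560 to 190982682 reads) were tested with edgeR 4.0.16 (R 4.3.3, TMM, low-count filter, quasi-likelihood test, two-sided) in 1 fit over the 14 sums with the experiment as block, because both genotypes of an experiment were pooled into 1 library. P-values were adjusted by Benjamini-Hochberg, and 0.05 was the limit. Each gate, genotype and experiment is 1 sum of pooled mice. With the experiment as block, p-values measure how far differences between gates or genotypes varied between the 2 experiments. They do not measure the spread between mice. DESeq2 1.42.0 and other cell filters, gates and fits were alternatives. Tests ran first on simulated data. Some genes of the ILC2 and marker lists are not reported here, nor is 1 planned choice of cells that rests on one of them; list counts and sums leave these genes out. Named genes were the 9, the gate genes, the ILC2 list and the 5 genes most like *Ccr9* and *Itgb7*. *Ccr2* and *Il18r1* were added after their values were seen. Gene positions are from GENCODE on GRCm38, and the promoter table gave *Ccr9* and *Cxcr6*.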

Additional observations from a re-analysis of the deposited data

Results flagged for a closer look

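In both experiments *Cxcr5* lay lower in G3SEKO than in WT in *Zbtb16*+ cells and higher in *Icos*+ cells. Its log2 ratio of G3SEKO to WT was -1.60 and -0.11 in *Zbtb16*+ cells and 3.07 and 2.11 in *Icos*+ cells. *Itgb7* had ratios of 0.69 and 0.16 in *Zbtb16*+ cells and -0.85 and -0.019 in *Icos*+ cells, the last from 500.3 and 494 CPM with overlapping counting intervals (492 to 509 and 484 to 504). The difference between the gates was not tested for either gene, with gates at 2 the fitted *Cxcr5* change in *Icos*+ cells turned to -0.52, and the 1st experiment holds 17 and 7 G3SEKO cells in these gates.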

How the results depend on the processing

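The number of genes called between WT *Il1rl1*+ and *Zbtb16*+ cells, 26, was 40 with gates at 2, 52 with overlapping gates, 497 with thinned cells and 584 by DESeq2. With the replicate block it was 612 on the sums of each contrast alone and 91 with the 1st experiment split by hashtag, and without the replicate block 28, 0 and 0 genes in this and the 2 genotype comparisons. The WT sums alone, an alternative chosen after seeing the data, gave 19. For G3SEKO against WT, DESeq2 called 19 genes in *Zbtb16*+ cells, and in *Icos*+ cells it called 122, thinned cells gave 47 and overlapping gates 1. Cells were drawn anew, fewer sums were fitted or another test was used in these settings, and the cause of each change was not tested. The *Ccr9* ratio in *Il1rl1*+ cells, 0.26, was -0.087 with hashtags by reads, -0.26 with gates at 0.5 and 0.71 with gates at 2.

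The *Ccr9* change with genotype in *Zbtb16*+ cells turned from 1.72 to -0.92 with gates at 2 and -0.73 with overlapping gates, and single experiments gave -0.58 to 3.75. For *Cxcr6* there it turned from 0.29 to -0.55 with overlapping gates and -0.11 to 0.75 over single experiments (1.49 in the 1st by hashtag). In *Icos*+ cells gates at 2 gave 0.10 for *Ccr9* and -0.52 for *Cxcr5*. Of 227 values of single receptor genes under the alternatives, *Ccr9* in contrasts with the *Il1rl1*+ gate left out, 193 kept direction and side of the threshold, 15 gained and 14 lost a call and 5 turned. With the 2nd experiment left out and the 1st split by hashtag, a fit added after seeing the data, edgeR called 16, 0 and 99 genes in the WT and the 2 genotype comparisons, the last on pools of 2 or 3 G3SEKO cells, and none of the 3 calls on receptor genes. The other values of single experiments have no test, since the 2nd holds 1 hashtag per genotype.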
